A study of Mus musculus and Homo sapiens with 32 samples.

Results

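The enzymes that attach glutathione, glucuronic acid or sulfate to other molecules were followed in mouse kidney after ureteral obstruction and in kidneys with altered Pcmt1, the gene of protein-L-isoaspartate methyltransferase, which repairs damaged aspartyl residues. Members were the protein-coding genes named Gst (classes alpha, kappa, theta, mu, omega, pi and zeta), Mgst, Ugt and Sult with a mean of at least 10 reads over the 18 libraries of the obstruction experiment. Of 69 genes with such names among 21608 protein-coding genes, 47 met the minimum: 21 of 23 Gst, 3 of 3 Mgst, 16 of 22 Ugt and 7 of 21 Sult genes. The members just inside the minimum were Gsto2 (mean count 20.889), Mgst2 (24.722) and Ugt2a3 (24.944), and just outside lay Gstm3 (7.722), Ugt1a9 (7.389) and Gstt4 (2.944). A total of 11 matching genes had no read in any library. All 47 members passed the filter on low counts and were tested.

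Bulk mRNA sequencing was carried out on kidneys of Pcmt1 fl/fl mice, whose Pcmt1 alleles are floxed, and of Pcmt1 tKO mice. The labels do not define tKO and name no Cre line, promoter, age, sex, time after surgery or dose. Each genotype was studied in 3 groups of 3 libraries: Sham+DMSO, UUO+DMSO and UUO+LY2109761. UUO is unilateral ureteral obstruction, a surgical model that leads to tubular injury and fibrosis, LY2109761 blocks the kinases of the TGF-β receptors, and DMSO is its solvent, so that every group received DMSO or LY2109761. Smaller deposited tables cover whole kidneys labelled Pcmt1 wild type and knockout (4 libraries each) and HK-2 cells, an immortalised human proximal tubule line, with and without PCMT1 knockout (3 each). The labels do not say whether replicates are separate animals, so p-values measure the spread between samples, which may be technical.

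Glutathione transferases join the thiol of glutathione to electrophiles such as lipid peroxidation products. UDP-glucuronosyltransferases of the endoplasmic reticulum transfer glucuronic acid from UDP-glucuronate, and cytosolic sulfotransferases transfer sulfate from the donor PAPS. The products are more soluble and leave the cell through transporters, and in the kidney much of this capacity lies in the proximal tubule. Many of the genes stand in tandem clusters of close paralogs, and several carry antioxidant response elements, the sites to which the transcription factor NRF2 binds.

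Of the promoters, 5 are shown because the alpha and pi class genes carry the genotype differences described further on and because the members of each pair are near copies. They are the 250 bases before the RefSeq start site in GRCm38.p6, 5′ to 3′ on the strand of the gene. Capitals mark matches to TGANNNNGC on the strand shown or to its reverse complement, a loose form of the antioxidant response element that also contains every match to the stricter form TGACNNNGC.
Gsta1: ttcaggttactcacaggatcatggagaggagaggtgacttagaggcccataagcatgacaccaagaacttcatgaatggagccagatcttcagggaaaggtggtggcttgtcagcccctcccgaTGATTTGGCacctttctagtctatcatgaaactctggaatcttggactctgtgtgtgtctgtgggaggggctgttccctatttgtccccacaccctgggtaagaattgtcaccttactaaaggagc
Gsta2: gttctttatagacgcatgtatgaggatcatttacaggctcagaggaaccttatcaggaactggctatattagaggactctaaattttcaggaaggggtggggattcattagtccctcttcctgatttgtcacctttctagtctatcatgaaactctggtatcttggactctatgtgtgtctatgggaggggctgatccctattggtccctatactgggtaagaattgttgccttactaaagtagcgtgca
Gsta3: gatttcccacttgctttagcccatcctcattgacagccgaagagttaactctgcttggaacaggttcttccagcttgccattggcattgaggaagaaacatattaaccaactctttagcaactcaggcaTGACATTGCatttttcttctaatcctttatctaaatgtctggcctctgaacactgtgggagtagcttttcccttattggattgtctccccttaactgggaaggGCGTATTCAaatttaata
Gstp1: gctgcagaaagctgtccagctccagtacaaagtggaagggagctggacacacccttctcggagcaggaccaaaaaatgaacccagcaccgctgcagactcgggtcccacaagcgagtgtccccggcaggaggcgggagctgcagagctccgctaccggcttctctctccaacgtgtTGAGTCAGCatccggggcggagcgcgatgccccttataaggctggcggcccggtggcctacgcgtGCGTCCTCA
Gstp2: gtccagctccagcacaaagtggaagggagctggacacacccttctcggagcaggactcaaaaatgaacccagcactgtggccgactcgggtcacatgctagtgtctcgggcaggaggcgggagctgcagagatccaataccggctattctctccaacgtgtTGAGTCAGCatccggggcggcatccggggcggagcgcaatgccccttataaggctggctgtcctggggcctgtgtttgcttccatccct
The windows lie at chr9:78230419-78230668 (plus strand) for Gsta1, chr9:78347146-78347395 (minus) for Gsta2, chr1:21240335-21240584 (plus) for Gsta3, chr19:4037913-4038162 (minus) for Gstp1 and chr19:4042222-4042471 (minus) for Gstp2.

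The strict form was found in Gsta3, on the strand shown, and not in the other 4 windows. The Gsta2 window held no match to the loose form either, although it was identical to that of Gsta1 at 77% of 239 aligned bases. Gstp1 and Gstp2 were identical at 88.5% of 235 aligned bases and shared the match TGAGTCAGC. RefSeq promoter windows, 250 bases before to 50 after the start, were available for 41 of the 47 members. On both strands, TGACNNNGC occurred in 4 of these 41 members (9.76%), against 14% of 27025 genes, and TGANNNNGC in 22 members (53.7%), against 45%. A match describes these letters only.

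Library totals ran from 13015669 to 19565376 reads. Levels are given as CPM, read counts scaled to a common library size after TMM correction. Proximal tubule markers (10 of 10 detected in every group) summed to between 30375 and 40718 CPM in fl/fl sham kidneys, and 5 hepatocyte markers to between 118 and 211 CPM, most of it Ttr. Pcmt1 stood at 49.3 CPM in the library labelled tKO sham replicate 1, above the 42.8 to 48.9 CPM of fl/fl sham libraries, while tKO sham replicates 2 and 3 had 22.7 and 24.3 CPM. That library therefore goes against its label, and results that rest on it are also given without it. In fl/fl UUO with LY2109761, Pcmt1 stood at 31.3, 25.7 and 39.0 CPM in replicates 1, 3 and 4. The tKO UUO libraries with LY2109761 had 23.1 to 28.0 CPM. Replicate 3 of that fl/fl group thus had the Pcmt1 level of tKO libraries, and its label could not be checked. Mitochondrially encoded genes took 30.8% to 35.5% of the counts in fl/fl sham libraries and 33.7%, 49.7% and 69.5% in tKO sham libraries. Obstructed fl/fl libraries had 7.43% to 7.67% and obstructed tKO libraries 9.88% to 16.2%.

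Levels between genes were compared on the authors' FPKM, which is per gene length. In fl/fl sham kidneys the mu class gene Gstm1 was highest at 181 ± 27.4 FPKM (SD, n = 3). Ugt3a2, of a family that uses UDP-sugars other than UDP-glucuronate, stood at 166 ± 7.2 FPKM, and Ugt2b38 at 154 ± 93.3 FPKM. The dopamine-conjugating Sult1d1 followed at 108 ± 18.4 FPKM, the alpha class Gsta2 at 94.4 ± 31.3 FPKM and the microsomal Mgst3 at 88.1 ± 5.29 FPKM. These neighbours in the order did not differ beyond their spread. Gstt1 (65 ± 7.42 FPKM) and Ugt3a1 (60.6 ± 6.96 FPKM) came next, and Sult4a1, a brain sulfotransferase without a settled substrate, was lowest of the 47. Summed over all members, the fl/fl sham libraries held 4744 to 4880 CPM.

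Obstruction was examined first in fl/fl kidneys. The summed level of the members fell to between 2211 and 2851 CPM in fl/fl UUO libraries, below every sham library. In edgeR's quasi-likelihood test (adjusted p under 0.05) 17 members were lower and 8 higher, or 25 of 47, where 39.6% of the 19256 genes tested were called, 18.7% lower and 20.9% higher. The median change over the members was -0.61 on the log2 scale, against 0.02 over all genes tested. Of 21 Gst genes 11 fell and 3 rose, of 16 Ugt genes 3 fell and 2 rose, of 7 Sult genes 2 fell and 2 rose, and of 3 Mgst genes 1 fell and 1 rose. In bulk tissue, fewer cells of a type and less RNA per cell cannot be told apart. Proximal tubule markers moved too: 8 of 10 fell, and their sum was 4760 to 8023 CPM after obstruction. Collecting duct markers were lower for 6 of 6 genes and those of the loop and distal tubule for 5 of 6. Of 5 hepatocyte markers 4 were lower and 1 higher. Markers of fibroblasts and myofibroblasts were higher for 4 of 5 genes, those of macrophages for 4 of 5 and those of neutrophils for 3 of 3. The part of these cells in the result was not tested.

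The scale matters for the direction. When the libraries were scaled by their column totals in place of TMM, the median of all genes stood at 0.76. Of 19256 genes, 8547 were then called higher and 906 lower, and the members split 10 higher and 5 lower. The 5 lower were Ugt3a1 (-2.69), Gstm2 (-1.64), Gstk1 (-1.24), Ugt3a2 (-1.17) and Gstt2 (-0.74), and Gstp1 (0.11) and Sult1a1 (0.20) changed sign. Each fall below is thus one against the average expressed gene.

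Ugt3a1 had the largest fall. It stood at 309, 277 and 227 CPM in the 3 fl/fl sham libraries and at 19.9, 21.2 and 33.9 CPM in the 3 fl/fl UUO libraries. All obstructed libraries lay far below all sham libraries (log2 -3.44, SE 0.45, edgeR adjusted p = 2.6e-05). Its neighbour Ugt3a2 in the same cluster (GRCm38 chromosome 15, 9276888 to 9370955) stood at 859, 927 and 771 CPM in sham and at 233, 177 and 268 CPM after obstruction. The groups did not overlap, and the change was -1.92 (SE 0.26, edgeR adjusted p = 3.1e-05). Ugt8a, the ceramide galactosyltransferase that makes galactosylceramide, went from 52.1, 79.1 and 81.9 CPM to 33.1, 31.1 and 42.8 CPM, lower in every obstructed library (edgeR adjusted p = 0.0021, but -0.26 and not called with column totals, edgeR adjusted p = 0.44).

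Among glutathione transferases, falls were seen in the mu, theta, kappa, zeta, pi and alpha classes. Gstm2 went from 158, 124 and 223 CPM in sham to 32.2, 36.4 and 29.3 CPM after obstruction, with no overlap (log2 -2.37, SE 0.39, edgeR adjusted p = 0.00021). Gstk1, the kappa class enzyme of mitochondria and peroxisomes, went from 87.0, 82.0 and 89.5 CPM to 24.0, 18.2 and 23.5 CPM. The sham libraries agree closely here, and the change was -1.98 (SE 0.19, edgeR adjusted p = 1.3e-06). Gstm1, the most abundant transferase, went from 825, 628 and 631 CPM to 304, 211 and 277 CPM (log2 -1.39, SE 0.36, edgeR adjusted p = 0.0056), again without overlap. All 3 theta class members fell: Gstt2 by 1.48, Gstt3 by 1.23 and Gstt1 by 0.75. Gstt1 stood at 165, 150 and 170 CPM in sham and at 101, 92.1 and 94.5 CPM after obstruction. Gstm7 fell by 1.54 and Gsta3 by 1.40. Gstz1, the maleylacetoacetate isomerase of tyrosine breakdown, was at -1.34, a call lost when any 1 of the 6 libraries was left out (edgeR adjusted p 0.053 to 0.11). With column totals the calls of Gstm1, Gstm7, Gstt1, Gstt3, Gsta3 and Gstz1 were lost (edgeR adjusted p 0.066 to 0.96), with each direction kept.

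Members of the same cluster could move in opposite directions. In the pi cluster on chromosome 19 (4035407 to 4059569), Gstp1 stood at 160, 110 and 132 CPM in fl/fl sham and at 94.6, 72.4 and 93.3 CPM after obstruction. Gstp3 went from 0.426, 0.222 and 0.129 CPM to 2.15, 3.06 and 1.23 CPM. So Gstp3 rose by 3.03 (SE 0.53, edgeR adjusted p = 0.0003) from very few reads while Gstp1 fell by 0.63 (SE 0.19, edgeR adjusted p = 0.014). The fall of Gstp1 was lost without sham replicate 1 (edgeR adjusted p = 0.082) and without UUO replicate 2 (edgeR adjusted p = 0.076). That of Gstp2, from 20.6, 17.8 and 20.2 CPM to 8.30, 7.95 and 16.5 CPM, was lost when any 1 library other than fl/fl UUO replicate 3 was left out (edgeR adjusted p 0.07 to 0.18). In the mu cluster on chromosome 3 (107895821 to 108044894), Gstm6 went from 3.48, 2.88 and 2.38 CPM to 6.02, 5.38 and 5.41 CPM, opposite to Gstm1, Gstm2 and Gstm7. The groups did not overlap (log2 0.94, SE 0.25, edgeR adjusted p = 0.0063). Paralogs in these clusters share long identical stretches, and how reads that fit several genes were counted is not given in the sources used here, so the split between close copies is uncertain.

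Gsto1, an omega class enzyme that reduces dehydroascorbate, rose. It went from 27.0, 26.8 and 37.3 CPM in sham to 69.2, 79.2 and 67.6 CPM after obstruction. The obstructed libraries all lay above the sham libraries (log2 1.24, SE 0.24, edgeR adjusted p = 0.00067). The microsomal transferases parted. Mgst1, which also reduces lipid peroxides, went from 81.1, 61.7 and 56.0 CPM to 99.6, 100 and 96.5 CPM, and Mgst3 from 136, 125 and 126 CPM to 78.8, 59.8 and 72.6 CPM. Mgst3 fell by 0.87 (SE 0.11, edgeR adjusted p = 1.5e-05, but -0.14 and not called with column totals), and Mgst1 rose by 0.58 (SE 0.20, edgeR adjusted p = 0.031), a call lost when any 1 library other than fl/fl sham replicate 1 was left out (edgeR adjusted p 0.053 to 0.12). Mgst2, whose product makes leukotriene C4, stood below 0.6 CPM in all 6 libraries.

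Among UDP-glucuronosyltransferases of the Ugt2 cluster on chromosome 5 (86889767 to 87424203), Ugt2b34 and Ugt2b37 rose. Ugt2b34 stood at 0.924, 4.96 and 7.52 CPM in fl/fl sham and at 15.0, 12.7 and 13.8 CPM after obstruction (log2 1.62, SE 0.57, edgeR adjusted p = 0.033). Ugt2b37 stood at 43.5, 118 and 91.3 CPM and then at 137, 226 and 162 CPM (log2 1.06, SE 0.40, edgeR adjusted p = 0.047). The sham libraries spread widely in both genes, with replicate 1 lowest. The call of Ugt2b34 was lost when any 1 library other than sham replicate 3 was left out (edgeR adjusted p 0.056 to 0.087), and that of Ugt2b37 when sham replicate 1 or 3 or UUO replicate 2 or 3 was (edgeR adjusted p 0.067 to 0.17). Ugt2b38 stood at 120, 563 and 480 CPM in sham, again lowest in replicate 1, and at 225, 244 and 302 CPM after obstruction. The groups overlapped and it was not called (log2 -0.59, edgeR adjusted p = 0.3).

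The sulfotransferases split. Sult1d1 went from 445, 324 and 338 CPM to 186, 104 and 196 CPM (log2 -1.19, SE 0.29, edgeR adjusted p = 0.0042, but -0.45 and not called with column totals). Sult1a1, the phenol sulfotransferase, went from 26.4, 24.6 and 25.5 CPM to 17.9, 19.4 and 15.2 CPM (log2 -0.54, edgeR adjusted p = 0.013), and the call was lost without fl/fl UUO replicate 3 (edgeR adjusted p = 0.06). Both fell without overlap. Sult1c2, by contrast, went from 30.6, 36.2 and 35.4 CPM to 61.3, 57.5 and 62.1 CPM (log2 0.82, SE 0.22, edgeR adjusted p = 0.0082). Sult4a1 went from 0.00, 0.222 and 0.322 CPM to 5.46, 4.03 and 5.04 CPM (log2 4.66, edgeR adjusted p = 9.2e-06). The size of that fitted change rests on a handful of sham reads.

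**Figure D1:**
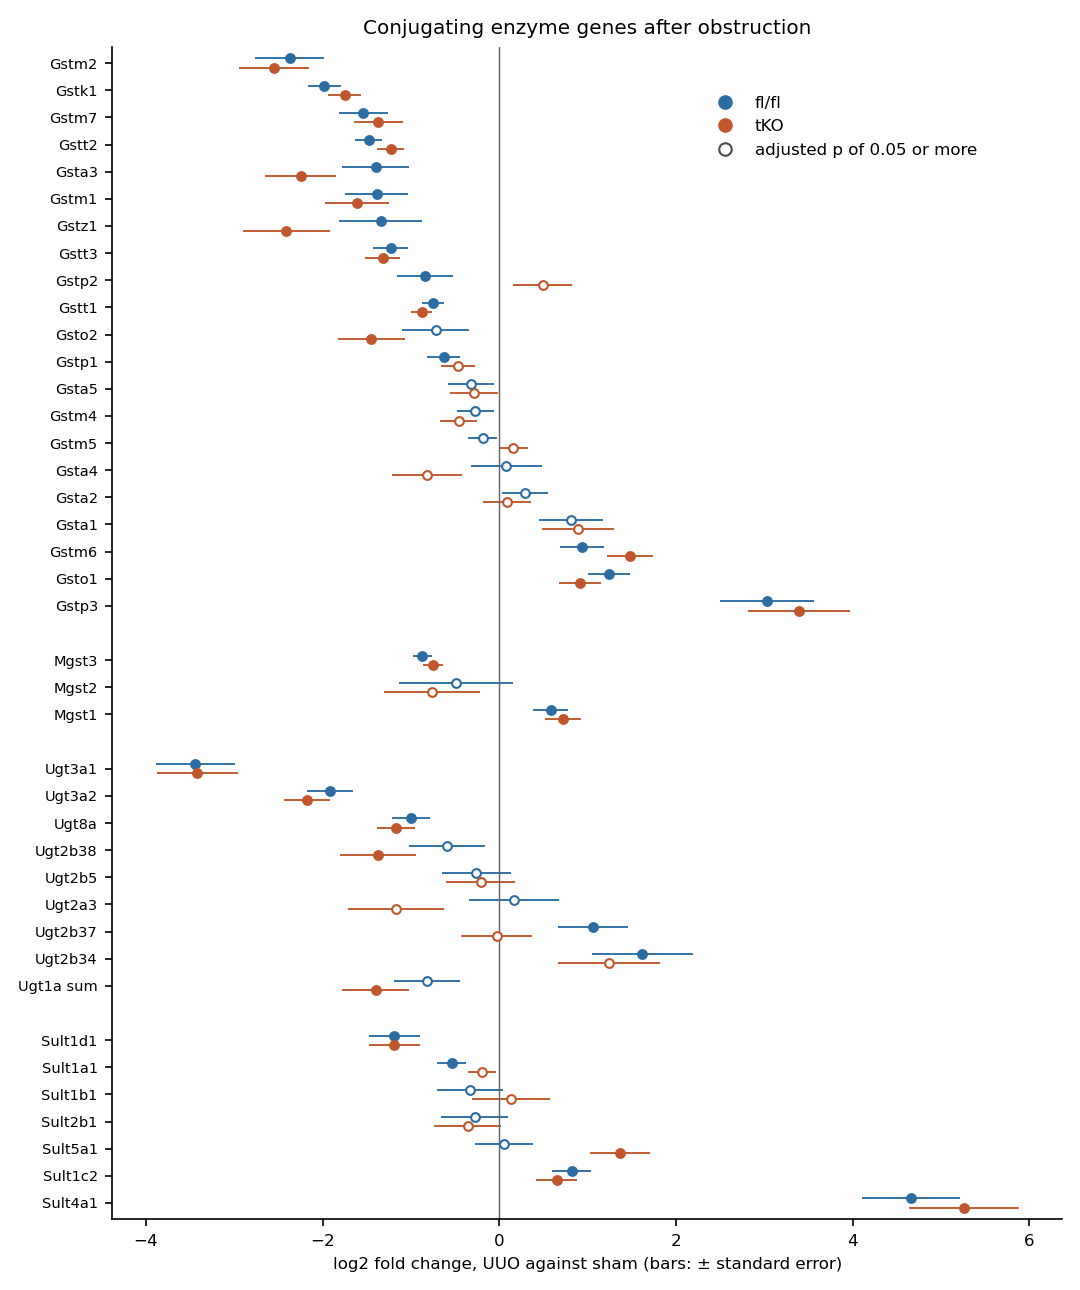
Change of each member after obstruction in fl/fl (blue) and tKO (orange) kidneys, by family. Points are log2 fold changes of UUO against sham with bars of 1 standard error, filled where the edgeR adjusted p is under 0.05, and the Ugt1a genes are drawn as their sum. Ugt3a1, at -3.44 and -3.42, lies farthest to the left and Sult4a1, at 4.66 and 5.26, farthest to the right.

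The same comparison in tKO kidneys called 18 members lower and 7 higher, where 41.0% of all genes were called (19.4% lower, 21.6% higher). The median was -0.75 over the members and 0.02 over all genes. With column totals the median of all genes stood at 1.06, and of 19256 genes 715 were called lower and 11686 higher. The members then split 7 lower and 17 higher, and Sult1d1 (0.04), Mgst3 (0.33) and Gstt1 (0.14) changed sign. The tKO and fl/fl comparisons use different libraries, and 20 members were called in the same direction in each, which is 80% of either list of 25. Both come from the same fit with a shared estimate of the spread, and their overlap over all genes was not counted. Ugt3a1 fell by 3.42 and Gstm2 by 2.55 in tKO kidneys, and Gstp3, Gstm6, Gsto1, Mgst1, Sult1c2 and Sult4a1 were among those that rose. Gsto2, the neighbour of Gsto1, went from 2.09, 2.28 and 2.59 CPM in tKO sham to 0.814, 0.561 and 1.14 CPM (log2 -1.45, SE 0.38, edgeR adjusted p = 0.0065, but -0.38 and not called with column totals, edgeR adjusted p = 0.42), while Gsto1 rose by 0.91. Sult5a1, a sulfotransferase with little known of its substrates, rose from 2.68, 4.98 and 3.39 CPM to 6.59, 14.6 and 7.29 CPM (log2 1.37, edgeR adjusted p = 0.0042). Gstz1 was at 62.9, 59.2 and 294 CPM in tKO sham and at 34.8, 17.7 and 25.3 CPM after obstruction (log2 -2.41, edgeR adjusted p = 0.00098), and the high sham value is that of replicate 3, whose mitochondrial share was 69.5%.

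The difference between genotypes in the response to obstruction was tested as an interaction. It called 0 members, where 0.0415% of all genes were called (0.0104% higher, 0.0312% lower). In edgeR 3 members had an unadjusted p under 0.05, a cut at which the share of all genes was not counted. DESeq2 also called 0 members, where it called 217 of 19256 genes higher and 195 lower. Without the library labelled tKO sham replicate 1 the interaction again called 0 members, where 216 of 19742 genes were higher and 77 lower. The tKO comparison without that library called 19 members lower and 6 higher, where 3561 genes were lower and 4177 higher. The call of Sult1c2 in tKO (log2 0.65, edgeR adjusted p = 0.032) was lost without it (0.51, edgeR adjusted p = 0.12), and also without tKO sham replicate 2 (edgeR adjusted p = 0.1), tKO UUO replicate 1 (0.095) or tKO UUO replicate 2 (0.12), and when fitted on only the groups compared (0.11).

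Kidneys of the tKO and fl/fl genotypes were then compared at the same treatment. In sham kidneys 12 members were lower and 1 higher in tKO, or 13 of 47, where 12.3% of all genes were called (6.57% lower, 5.76% higher). In UUO kidneys 9 were lower and 2 higher, where 17.9% of all genes were called (9.65% lower, 8.27% higher). The medians over the members were -0.28 and -0.49, against 0.03 and 0.05 over all genes. The comparisons share no library, but they come from the same fit with a shared estimate of the spread. They had 9 members in common, all in the same direction, which is 69.2% of the sham list and 81.8% of the UUO list: Gsta1, Gsta2, Gsta3, Gsta5, Gstm5, Mgst2, Sult1d1, Ugt1a10 and Ugt3a2. The overlap of the calls over all genes was not counted.

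The alpha class carried the most of these. Gsta2 stood at 129, 191 and 235 CPM in fl/fl sham and at 57.1, 88.6 and 74.4 CPM in tKO sham. After obstruction it stood at 213, 161 and 306 CPM in fl/fl and at 76.9, 88.3 and 69.4 CPM in tKO. Every tKO library lay below every fl/fl library in both treatments, by a log2 difference of 1.34 (SE 0.27, edgeR adjusted p = 0.0099) in sham and by 1.53 (SE 0.27, edgeR adjusted p = 0.0031) in UUO. Gsta1 stood at 4.48, 5.10 and 7.46 CPM against 1.71, 1.56 and 0.797 CPM in sham, and at 8.47, 6.55 and 14.9 CPM against 2.52, 2.20 and 3.23 CPM in UUO. Its differences were -1.99 (edgeR adjusted p = 0.011) and -1.91 (edgeR adjusted p = 0.0047). Gsta5 stood at 17.5, 20.7 and 26.8 CPM against 9.02, 6.02 and 8.17 CPM in sham (log2 -1.48, edgeR adjusted p = 0.0066). In UUO it stood at 15.9, 13.6 and 22.5 CPM against 4.68, 8.25 and 6.06 CPM (log2 -1.45, edgeR adjusted p = 0.0035). None of these 3 genes was called after obstruction itself in either genotype, though with column totals Gsta1 (1.54) and Gsta2 (1.02) were called higher in fl/fl and Gsta5 went from -0.32 to 0.41. They lie side by side on chromosome 9 (78182774 to 78355788), and since Gsta1 and Gsta2 are near copies, the split of reads between them is uncertain.

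Gsta4, at the other end of that cluster, which conjugates 4-hydroxynonenal, did not share the pattern. It stood at 34.3, 26.0 and 39.0 CPM in fl/fl sham and at 58.3, 122 and 35.7 CPM in tKO sham, with overlap (log2 1.13, SE 0.41, edgeR adjusted p = 0.078), and the difference was 0.22 in UUO (edgeR adjusted p = 0.74). Gsta3 lies apart, on chromosome 1 (21240589 to 21265661). It stood at 97.0, 96.4 and 111 CPM in fl/fl sham against 65.6, 33.7 and 30.5 CPM in tKO sham, where the highest value is that of the doubtful library. After obstruction it stood at 40.3, 21.3 and 53.5 CPM in fl/fl against 10.9, 5.66 and 10.9 CPM in tKO. The groups overlapped in neither treatment, and the differences were -1.22 (edgeR adjusted p = 0.047, lost when any 1 library other than the doubtful one was left out, edgeR adjusted p 0.082 to 0.18) and -2.07 (SE 0.39, edgeR adjusted p = 0.0042). Summed, Gsta1, Gsta2, Gsta3 and Gsta5 held 248 to 380 CPM in fl/fl sham and 114 to 133 CPM in tKO sham, and 202 to 397 CPM against 89.6 to 104 CPM in UUO.

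Ugt3a2 stood at 859, 927 and 771 CPM in fl/fl sham against 321, 291 and 478 CPM in tKO sham, and at 233, 177 and 268 CPM against 80.3, 63.5 and 96.7 CPM in UUO. It was lower in all tKO libraries, by 1.23 (SE 0.25, edgeR adjusted p = 0.01) and 1.49 (SE 0.26, edgeR adjusted p = 0.0028), and the first call was lost without tKO sham replicate 2 (edgeR adjusted p = 0.056). Its neighbour Ugt3a1 was not called (-0.69 and -0.67, edgeR adjusted p = 0.28 and 0.29). Sult1d1 stood at 445, 324 and 338 CPM against 121, 136 and 264 CPM in sham, and at 186, 104 and 196 CPM against 88.0, 73.1 and 66.9 CPM in UUO. The difference was -1.09 in each (edgeR adjusted p = 0.027 and 0.02). The call in sham was lost when any 1 library other than tKO sham replicate 3 was left out (edgeR adjusted p 0.055 to 0.12), and that in UUO without fl/fl UUO replicate 1 or 3 or tKO UUO replicate 2 or 3 (edgeR adjusted p 0.066 to 0.076).

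Gstm5 stood at 156, 149 and 138 CPM in fl/fl sham against 82.1, 72.2 and 75.0 CPM in tKO sham, a tight separation (log2 -0.95, SE 0.16, edgeR adjusted p = 0.0047). In UUO it stood at 138, 105 and 147 CPM against 93.4, 97.0 and 66.3 CPM (log2 -0.60, edgeR adjusted p = 0.018), and the call was lost without fl/fl UUO replicate 1 or 3 or tKO UUO replicate 3 (edgeR adjusted p 0.069 to 0.076). Gstp2 was lower in tKO sham, at 5.29, 6.65 and 3.59 CPM against 20.6, 17.8 and 20.2 CPM (log2 -1.89, SE 0.34, edgeR adjusted p = 0.0063), and not called in UUO (-0.56, edgeR adjusted p = 0.24). Gstp1, Gstk1 and Sult1b1 were called in sham with differences of -0.61, -0.71 and -1.60, each lost when any 1 library other than the doubtful tKO sham replicate 1 was left out (edgeR adjusted p 0.053 to 0.15). Mgst2 was the member higher in tKO in both treatments, from few reads. It stood at 1.19, 5.40 and 1.59 CPM against 0.568, 0.592 and 0.579 CPM in sham (log2 2.24, edgeR adjusted p = 0.028), and at 1.71, 1.73 and 1.46 CPM against 0.516, 0.388 and 0.322 CPM in UUO (log2 1.97, edgeR adjusted p = 0.031). The first call was lost without tKO sham replicate 2 or any 1 fl/fl sham library (edgeR adjusted p 0.071 to 0.23), and the second without any 1 of the 6 libraries (edgeR adjusted p 0.059 to 0.095). Sult5a1 was higher in tKO UUO (log2 1.06, edgeR adjusted p = 0.033), a call lost without fl/fl UUO replicate 1 or 3 or tKO UUO replicate 2 (edgeR adjusted p 0.11 to 0.2).

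**Figure D2:**
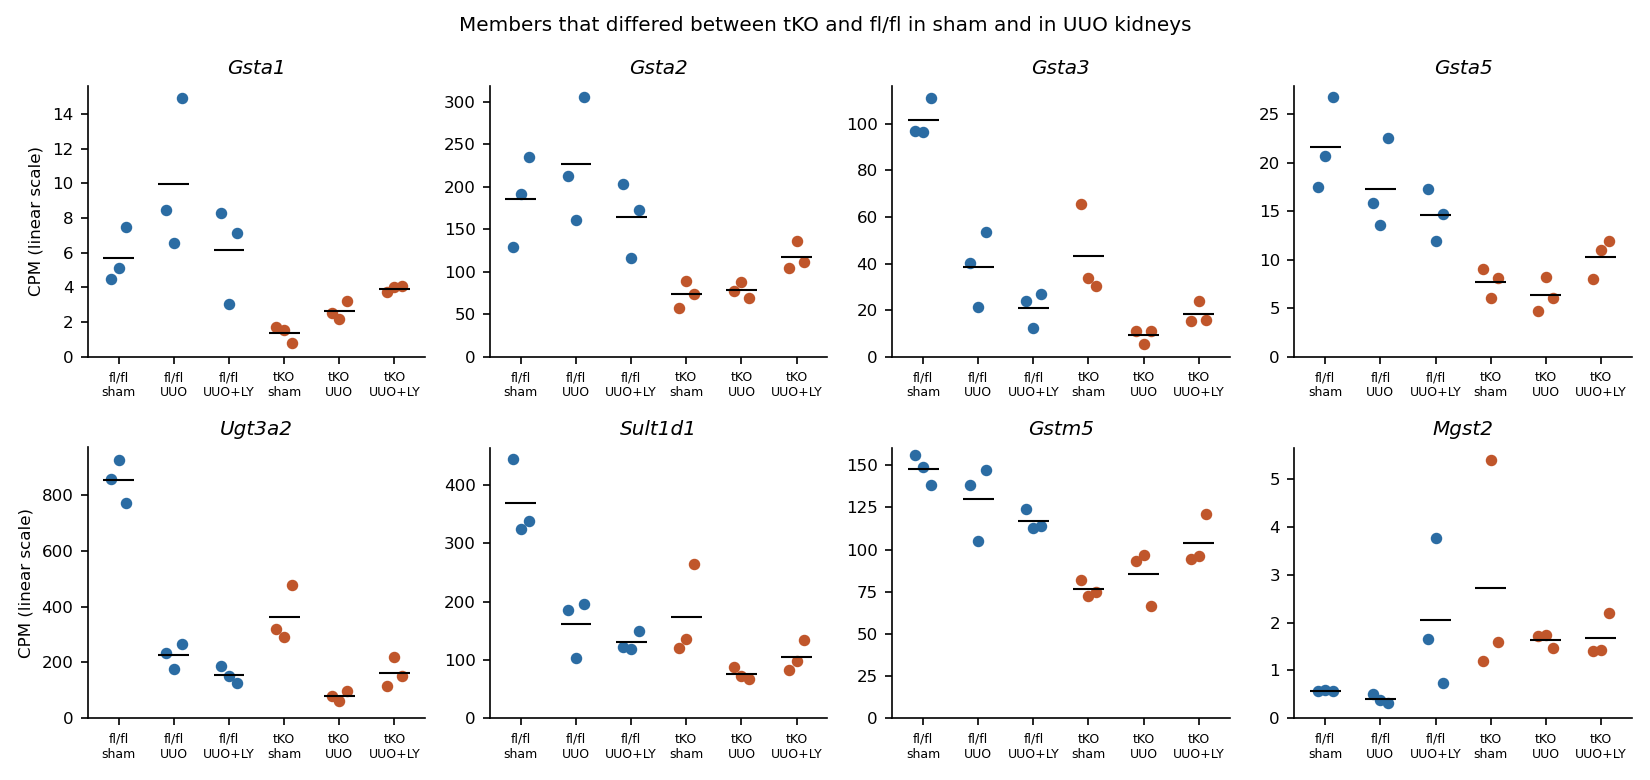
Level of 8 members in each of the 18 libraries (CPM, linear scale from 0), with the group mean as a line, fl/fl in blue and tKO in orange. In the panel of Gsta2 the tKO sham libraries reach 88.6 CPM at most and the fl/fl sham libraries 129 CPM at least, and in that of Mgst2 the order is the opposite.

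Without the library labelled tKO sham replicate 1, which has the Pcmt1 level of a control, 11 members were lower and 3 higher in tKO sham. Of the 19742 genes tested in that fit, 2358 were called lower and 1877 higher. Gsta1 (-2.19), Gsta2 (-1.18), Gsta3 (-1.66), Gsta5 (-1.63), Ugt3a2 (-1.15), Gstm5 (-1.01) and Mgst2 (2.64) were called there (edgeR adjusted p 0.0022 to 0.013), and Sult1d1 was not (-0.89, edgeR adjusted p = 0.056). In tKO sham replicate 1 itself, Gsta2 (57.1 CPM) and Sult1d1 (121 CPM) were the lowest of the tKO sham values. Gsta1 (1.71 CPM), Gsta3 (65.6 CPM), Gsta5 (9.02 CPM) and Gstm5 (82.1 CPM) were the highest of them. Each of these values lay below every fl/fl sham library, while the Pcmt1 level of that library did not. Of the 13 calls in sham, 5 held whichever library was left out: Gsta1, Gsta2, Gsta5, Gstm5 and Gstp2. A fit on the 2 sham groups alone called 0 members, where 3 of 16526 genes were called higher and 3 lower. In that fit Gsta5, Gsta1 and Gsta2 were at edgeR adjusted p = 0.067, 0.072 and 0.08. In edgeR's fit on all groups 19 members had an unadjusted p under 0.05, and the share of all genes at that cut was not counted. Of the 11 calls in UUO, Gsta1, Gsta2, Gsta3, Gsta5 and Ugt3a2 held under each of 12 alternatives. With column totals 7 members were called in sham and 7 in UUO, all of them lower. Of 19256 genes, column totals called 222 lower and 70 higher in sham, and 317 lower and 365 higher in UUO.

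Other features moved with genotype. Proximal tubule markers were called lower in tKO for 3 of 10 genes in sham and 4 of 10 in UUO, among them the endocytic receptor genes Cubn and Lrp2. The median log2 difference of the 10 genes was -0.75 in sham and -1.11 in UUO, against -0.28 and -0.49 over the members. Their sums overlapped: 25152 to 40329 CPM in tKO sham against 30375 to 40718 CPM in fl/fl sham, and 4555 to 6938 CPM in tKO UUO against 4760 to 8023 CPM in fl/fl UUO. Urothelium markers were called higher for 3 of 5 genes in tKO sham, where their sum was 54.8 to 214 CPM against 23.8 to 48.9 CPM, with none of the 5 at 0 in any group. Fibroblast and myofibroblast markers were called higher for 4 of 5 genes in tKO sham (sums of 304 to 475 CPM against 119 to 186 CPM) and for 2 of 5 in tKO UUO (1581 to 2886 CPM against 868 to 991 CPM), without overlap of the sums. In UUO, macrophage markers were called higher in tKO for 2 of 5 genes (718 to 1840 CPM against 625 to 753 CPM) and neutrophil markers for 2 of 3 (15.8 to 38.9 CPM against 7.18 to 12.9 CPM). The part of these cells and of the mitochondrial share in the differences was not tested.

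LY2109761 was compared with its solvent after obstruction. In fl/fl UUO kidneys 3 members were higher with LY2109761 and 0 lower, where 5.15% of all genes were called (2.52% higher, 2.62% lower). Gsta4 stood at 77.1, 133 and 89.2 CPM against 34.2, 45.1 and 25.8 CPM without it (log2 1.51, SE 0.41, edgeR adjusted p = 0.045). Gstt2 stood at 124, 118 and 101 CPM against 69.6, 68.4 and 91.6 CPM (log2 0.58, edgeR adjusted p = 0.035), and Mgst2 at 1.65, 3.76 and 0.727 CPM against 0.516, 0.388 and 0.322 CPM (log2 2.27, edgeR adjusted p = 0.04). The groups did not overlap in any of them. Replicate 3 with LY2109761, the library with 25.7 CPM of Pcmt1, held the highest Gsta4 (133 CPM) and Mgst2 (3.76 CPM). Without it the comparison called 0 members, where 0 of 19708 genes were called higher and 2 lower. The call of Gsta4 was lost without any 1 of the 6 libraries (edgeR adjusted p 0.052 to 0.2), that of Mgst2 without any but LY2109761 replicate 4 (0.084 to 0.23) and that of Gstt2 without replicate 1 or 2 of UUO or replicate 1 or 3 with LY2109761 (0.11 to 0.15). Urothelium markers rose with LY2109761 for 3 of 5 genes, from a sum of 38.3 to 123 CPM to one of 184 to 488 CPM. Fibroblast and myofibroblast markers rose for 1 of 5 genes, from a sum of 868 to 991 CPM to one of 1252 to 1400 CPM. Proximal tubule markers were lower for 1 of 10. The mitochondrial share was 12.1% to 16.4% with LY2109761, against 7.43% to 7.67% without it. The part of these cells and of that share was not tested. In tKO UUO kidneys 0 members were called, where 0.171% of all genes were (0.0831% higher, 0.0883% lower). In edgeR 8 members had an unadjusted p under 0.05 there, and the share of all genes at that cut was not counted. DESeq2 called 3 members higher, where it called 427 of 19256 genes higher and 477 lower.

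Between genotypes, 2 members differed when both received LY2109761, where 2.98% of all genes were called (0.888% higher, 2.09% lower). Gstp2 stood at 5.74, 4.73 and 4.24 CPM in tKO against 18.4, 11.4 and 8.63 CPM in fl/fl (log2 -1.38, SE 0.33, edgeR adjusted p = 0.036). Gstt2 stood at 75.3, 78.1 and 65.0 CPM against 124, 118 and 101 CPM (log2 -0.65, edgeR adjusted p = 0.029). Each call was lost without fl/fl replicate 1 or 3 or tKO replicate 2 or 3 with LY2109761 (edgeR adjusted p 0.082 to 0.15). The alpha class and Ugt3a2 were not called here. Gsta2 stood at 105, 136 and 112 CPM in tKO against 203, 116 and 173 CPM in fl/fl, which overlap (-0.48, edgeR adjusted p = 0.34), and Gsta1 (-0.65), Gsta3 (-0.19) and Gsta5 (-0.51) had edgeR adjusted p from 0.3 to 0.83. The overlap of Gsta2 came through fl/fl replicate 3 (116 CPM), which had 25.7 CPM of Pcmt1. Gsta1 (3.04 CPM), Gsta3 (12.3 CPM) and Gsta5 (11.9 CPM) were also lowest of the fl/fl group in that library. Without it the comparison called 0 members, where 9 of 19708 genes were called higher and 14 lower. Ugt3a2 stood at 114, 218 and 153 CPM in tKO against 186, 153 and 127 CPM in fl/fl (0.06, SE 0.26, edgeR adjusted p = 0.93).

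Whether the genotype difference itself changed with LY2109761 was tested as an interaction, which shares the UUO libraries with the comparisons above. It called 6 members, 5 higher and 1 lower, which is 12.8% of the members, near the 13.8% of all genes called (7.05% higher, 6.80% lower). For Ugt3a2 the tKO against fl/fl difference was 1.55 higher with LY2109761 than without (SE 0.36, edgeR adjusted p = 0.012), and this call held under each of 18 alternatives. Behind it, fl/fl libraries went from 233, 177 and 268 CPM to 186, 153 and 127 CPM with LY2109761, and tKO libraries from 80.3, 63.5 and 96.7 CPM to 114, 218 and 153 CPM. Neither change with LY2109761 was itself called: it was -0.54 in fl/fl (edgeR adjusted p = 0.22), where the libraries overlapped, and 1.01 in tKO (edgeR adjusted p = 0.091), where they did not.

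The other 5 calls of this interaction were each lost when any 1 of between 5 and 8 of the 12 libraries was left out (edgeR adjusted p 0.051 to 0.088), fl/fl UUO replicate 1 and replicate 3 of both LY2109761 groups among them in each case. For Gsta3 (1.88, edgeR adjusted p = 0.032) the fl/fl libraries stood at 23.8, 12.3 and 26.8 CPM with LY2109761 and the tKO libraries at 15.3, 24.1 and 15.9 CPM. Sult1b1, an enzyme that sulfates thyroid hormones, was called at 1.93 (edgeR adjusted p = 0.03) from levels below 2.5 CPM. It stood at 2.02, 1.94 and 2.09 CPM in fl/fl UUO and at 1.65, 0.792 and 1.26 CPM with LY2109761, and in tKO at 1.06, 1.21 and 0.456 CPM and then at 2.49, 1.73 and 2.25 CPM. Sult1c2 (1.11, edgeR adjusted p = 0.031) went from 61.3, 57.5 and 62.1 CPM to 51.3, 39.5 and 42.3 CPM in fl/fl, and from 43.5, 46.0 and 28.7 CPM to 52.5, 51.8 and 83.6 CPM in tKO. Gstt2 (-0.72, edgeR adjusted p = 0.032) moved the other way, up in fl/fl and at similar levels in tKO (74.9, 78.1 and 87.1 CPM, then 75.3, 78.1 and 65.0 CPM). Ugt1a7c was called at 2.93 (edgeR adjusted p = 0.03). Proximal tubule markers were called higher in the same interaction for 4 of 10 genes, with Cubn at 1.82, and fibroblast and myofibroblast markers lower for 3 of 5. Their part was not tested.

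**Figure D3:**
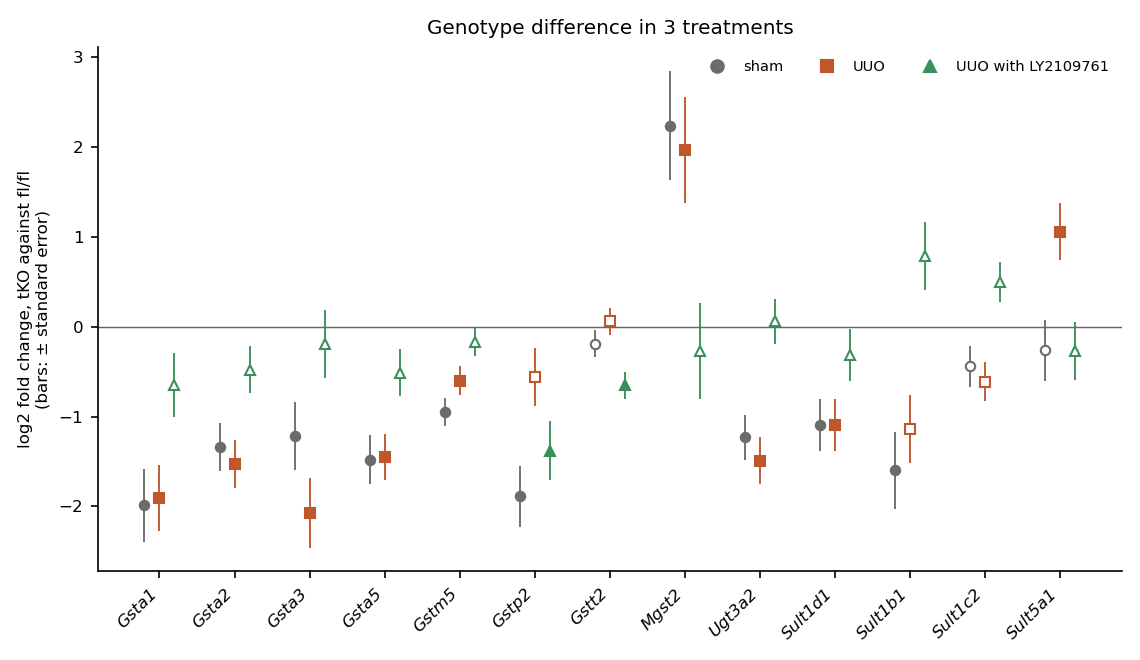
Difference between tKO and fl/fl kidneys in sham (grey circles), UUO (orange squares) and UUO with LY2109761 (green triangles) for 13 members, as log2 fold changes with bars of 1 standard error, filled where the edgeR adjusted p is under 0.05. For Ugt3a2 the sham and UUO points lie at -1.23 and -1.49 and the LY2109761 point at 0.06.

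The Ugt1a genes need a separate account. The 8 members lie on chromosome 1 (88055388 to 88220002) as alternative first exons spliced to exons that they share, Ugt1a1 being the bilirubin transferase. A read in the shared exons can be given to any of them. The within-group coefficient of variation of single genes had a median over the 6 groups of 105% for Ugt1a1, 103% for Ugt1a2 and 166% for Ugt1a5, against 28% for the sum of the cluster. Ugt1a1, for example, stood at 24.1, 0.00 and 0.137 CPM in the tKO UUO libraries, and Ugt1a2 at 0.00, 30.7 and 0.00 CPM in the tKO sham libraries. Single Ugt1a genes were called in several comparisons (such as Ugt1a10 and Ugt1a7c, at -2.14 and -2.50 in tKO against fl/fl UUO), but their split is uncertain, so the sum is given.

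As a sum of 9 genes, which includes Ugt1a9, the cluster stood at 326, 239 and 213 CPM in fl/fl sham and at 152, 91.6 and 196 CPM in fl/fl UUO. The change was -0.82 (SE 0.37) and did not pass (edgeR adjusted p = 0.091). In tKO the sum stood at 177, 128 and 137 CPM in sham and at 74.5, 24.1 and 69.2 CPM in UUO, which passed (log2 -1.40, SE 0.38, edgeR adjusted p = 0.0077, but -0.38 and not called with column totals). Between genotypes the sum was lower in tKO by 1.39 in UUO (edgeR adjusted p = 0.021), a call lost without fl/fl UUO replicate 1 or 3 or tKO UUO replicate 2 and with column totals. In sham the difference was -0.82 (edgeR adjusted p = 0.15), though no tKO library reached the lowest fl/fl library. With LY2109761 the sum stood at 149, 114 and 74.2 CPM in fl/fl and at 90.6, 72.9 and 110 CPM in tKO, with overlap (log2 -0.30, edgeR adjusted p = 0.7), and the interaction was 1.09 (SE 0.52, edgeR adjusted p = 0.18).

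**Figure D4:**
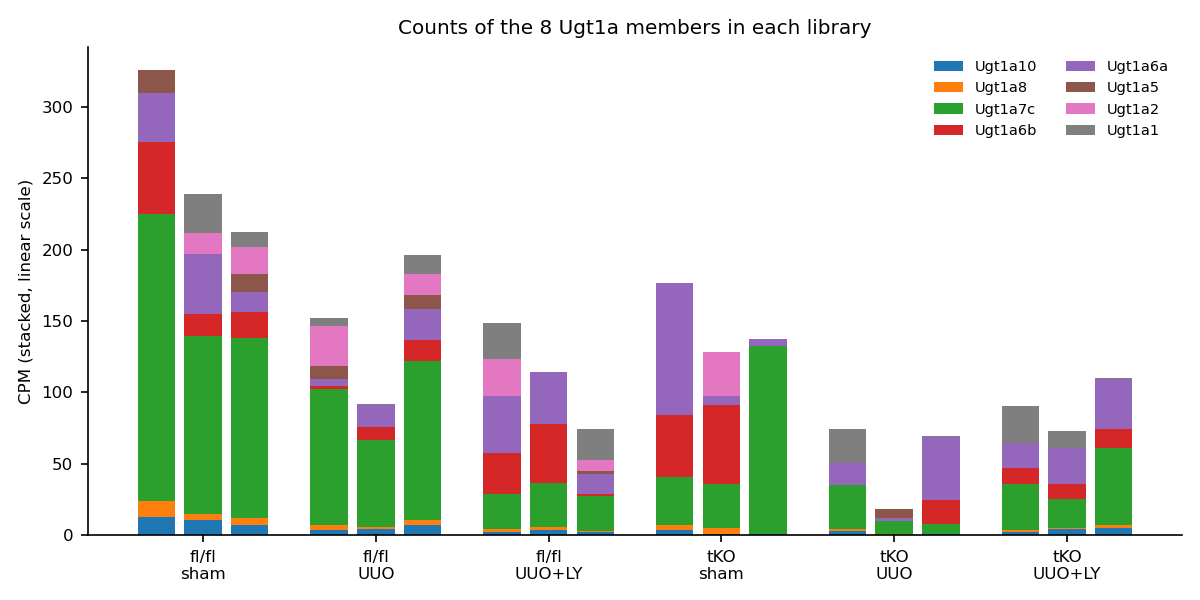
Stacked level of the 8 Ugt1a members in each library of the 6 groups (CPM, linear scale from 0). The parts of Ugt1a1, Ugt1a2 and Ugt1a5 come and go between libraries of a group, Ugt1a9 is not drawn, and Ugt1a7c is the largest part in every fl/fl sham library, at 201, 125 and 126 CPM.

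Whole kidneys labelled wild type and knockout gave another view of this cluster. The authors' deposited table lists 410 genes and holds 5 genes with the names sought, all from Ugt1a: Ugt1a1, Ugt1a2, Ugt1a6a, Ugt1a9 and Ugt1a10. Summed over the 5, wild-type libraries held 23758, 20712, 18970 and 32450 reads and knockout libraries 23432, 29098, 27653 and 25777 reads, which overlap. The share given to Ugt1a2 was 64.8% to 82% in the wild-type libraries, and 72.9%, 16.1%, 17.8% and 18.8% in the knockout libraries. Knockout replicate 1 thus had the division of the wild-type libraries, and the other 3 had another. Ugt1a10 was 26.31 to 30.71 FPKM in wild type and 41.47 to 59.01 FPKM in knockout, with no overlap. In the obstruction experiment its direction was the opposite, at 0.598 to 3.73 CPM in tKO sham against 7.14 to 12.9 CPM in fl/fl sham. The split of reads within the cluster is uncertain in both. The table holds only part of the genes, and Pcmt1 is not among them, so neither a test nor a check of the labels was made.

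**Figure D5:**
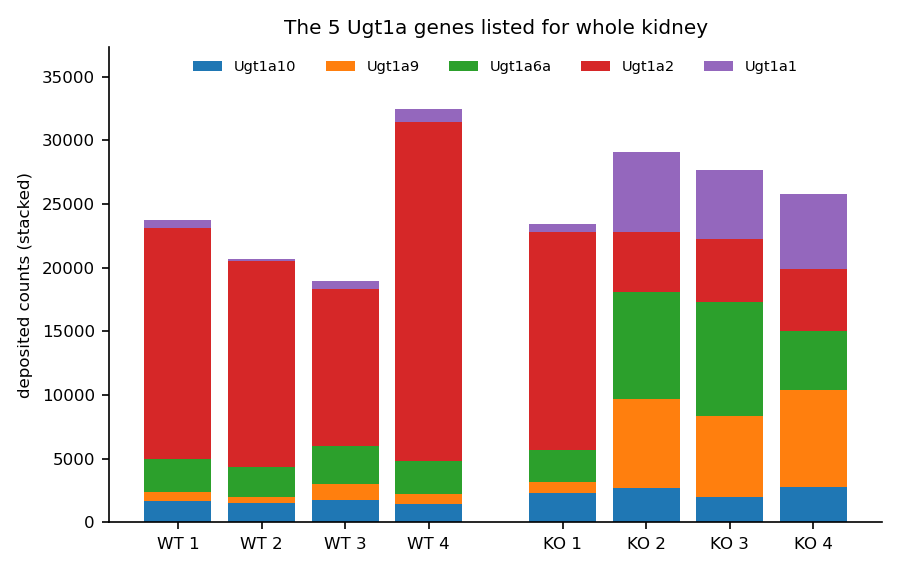
Deposited read counts of the 5 listed Ugt1a genes in each whole-kidney library, stacked (linear scale from 0). Ugt1a2 fills most of the 4 wild-type bars and of knockout replicate 1 (72.9% of the sum), and 16.1% to 18.8% of knockout replicates 2 to 4.

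In HK-2 cells the authors' deposited table lists 379 genes, with UGT1A8, UGT1A9 and GSTZ1 among them. UGT1A9 stood at 3.996 ± 0.4359 FPKM (SD, n = 3) in PCMT1 knockout cells and at 0.7437 ± 0.338 FPKM in controls, from 120 to 152 and 20 to 37 reads. UGT1A8 stood at 2.087 ± 0.377 FPKM against 0.1271 ± 0.2201 FPKM, from 58 to 82 and 0 to 15 reads. GSTZ1 was lower in knockout cells, at 0.6225 ± 0.0232 FPKM against 1.267 ± 0.1911 FPKM. UGT1A8 and UGT1A9 share their last exons, so these values may stand for the same reads, and no test was made on this partial table.

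The supply of the cosubstrates and the export of the products were followed with fixed lists, whose counts stand beside the 39.6% of all genes called in this comparison. Of 20 genes of glutathione synthesis and use, 13 fell and 2 rose after obstruction in fl/fl kidneys, among them Ggt1, which cleaves extracellular glutathione (-2.29), Nat8, which acetylates cysteine conjugates (-2.05), Ggct (-1.49) and Hagh (-1.28). Of 18 transporters of conjugates 11 fell and 2 rose, with Slco4c1 at -3.39, Abcc6 at 6.23, 5.82 and 9.27 CPM after 27.1, 35.4 and 22.9 CPM in sham, Slc17a3 at -1.80 and Slc17a1 at -1.06. Of 21 genes of NRF2 and its targets 6 fell and 3 rose: Nqo1 (a quinone reductase) was at -2.29 and Gclc, the catalytic subunit of glutathione synthesis, at -1.39, whereas Akr1b8, an aldo-keto reductase gene, was at 3.89 and Hmox1, which degrades heme, at 1.11. Of 8 genes of UDP-glucuronate supply 4 fell and 2 rose, with Ugdh, which makes UDP-glucuronate, at 57.3, 60.8 and 72 CPM after 145, 122 and 113 CPM in sham, Pgm1 at -0.96, Slc35a3 at -0.79 and Pgm2 at 1.46. Of 16 genes of sulfate and PAPS supply 4 fell and 4 rose, with the sulfate transporter genes Slc26a2 at -1.50 and Slc13a1 at 1.82, the PAPS synthase gene Papss1 at -0.97 and Tpst1 at 1.30. Of 13 regulators 3 fell and 2 rose, with Nr1i2, the xenobiotic receptor PXR, at 1.45, Cebpb at 1.42 and Nr1h3 at -0.80. The counts for the regulators (5 of 13) and the NRF2 list (9 of 21) lie near that background.

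Between genotypes the same lists were compared. In sham, 6 of 20 glutathione genes were lower and 0 higher, with Esd at -1.08, Nat8 at -1.01 and Gclm, the regulatory subunit of glutathione synthesis, at -0.86. In UUO 6 were lower and 0 higher, with Nat8 at -0.88, Gclm at -0.72 and Oplah at -0.62. The NRF2 list had 5 lower and 2 higher in sham, with Me1 at -0.83 and Hmox1 at -0.71, and 4 lower and 0 higher in UUO, with Me1 at -1.04 and Nfe2l2, the gene of NRF2, at -0.79. In sham the calls were 2 lower and 0 higher of 8 for UDP-glucuronate supply and 2 lower and 2 higher of 16 for sulfate and PAPS supply. They were 1 lower and 1 higher of 13 regulators, and 3 lower and 2 higher of 18 transporters. In UUO 1 of 8 UDP-glucuronate genes was lower and 0 higher. In UUO 5 of 13 regulators were lower and 0 higher, among them Ppara (-1.68), Hnf4a (-0.91) and Rxra (-0.79), and 5 of 18 transporters were lower and 0 higher, among them Slco1a6 (-1.67), Slc17a1 (-1.31) and Abcg2 (-1.11). Of the sulfate and PAPS list 5 were lower and 1 higher in UUO, with Arsb at -1.49, Suox at -1.39 and Bpnt1 at -1.37, while the median of that list was -0.05. These counts stand beside 12.3% of all genes called in sham and 17.9% in UUO.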

How the data were processed

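Per the labels' protocols, TRNzol Universal was used for the RNA and an ABclonal kit for the mRNA libraries. Tools in the submitters' processing notes are HISAT2, StringTie and fastp, with the builds GRCm38/mm10 and GRCh38/hg38. Annotation, strand and the counting of shared reads are not given in the sources used here. As deposited, the counts are whole reads per gene that the authors did not normalize, and the deposited FPKM are their values per gene length and depth. The gene loci of the obstruction table matched the GRCm38 annotation (GENCODE vM21) for 2.8% of 51884 shared IDs, against 99.0% of 407 in the whole-kidney table, so gene positions were taken from that annotation by gene ID.

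Counts of the 18 libraries (6 groups of 3) were fitted together in edgeR 4.0.16 (limma 3.58.1, R 4.3.3) with TMM, filterByExpr (minimum count 10) and the quasi-likelihood test, with 19256 genes tested on 12 residual degrees of freedom. P-values were adjusted by Benjamini-Hochberg over all genes tested, with a threshold of 0.05. The standard error is the size of the log2 fold change divided by the square root of F. CPM use the TMM-scaled library size. The scripts were tested on simulated data. Alternatives were DESeq2 1.42.0, column totals, no filter, only the groups compared, a replicate block, mitochondrially encoded genes removed and each library left out. The sum of the Ugt1a genes under column totals and with libraries left out was added after seeing the data. Same-numbered libraries did not deviate together (correlations of -0.13 to 0.12), so the numbers were not treated as pairs.

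Members and gene lists were chosen with earlier results of these data known. Values in every library are given for the 3 largest falls and rises without overlap (mean CPM of at least 5) in fl/fl UUO against sham, the 3 members of highest FPKM per family, up to 6 of smallest p in each other comparison, and members opposite to their closest paralog. Of the lists, up to 4 genes of smallest p are named after obstruction and up to 3 called between genotypes. Other members whose values are given were chosen after their values were seen. Promoter windows are RefSeq's for GRCm38.p6. Protein sequences were not used here.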

Additional observations from a re-analysis of the deposited data

Results flagged for a closer look

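A test of the difference itself singled out 6 members whose tKO against fl/fl difference in UUO kidneys changed with LY2109761 (edgeR's quasi-likelihood interaction). On the log2 scale the change was 2.93 for Ugt1a7c, 1.93 for Sult1b1, 1.88 for Gsta3, 1.55 for Ugt3a2, 1.11 for Sult1c2 and -0.72 for Gstt2, with edgeR adjusted p from 0.012 to 0.032. These 6 are 12.8% of the 47 members, near the 13.8% of all genes called in this interaction. Ugt3a2 alone of these 6 was called under each of the 18 alternatives run.

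In whole kidney, 1 sample lay far from the other 3 knockout libraries in 2 genes. Knockout replicate 1 had 17.5 FPKM of Ugt1a1 and 447 FPKM of Ugt1a2 by the authors' deposited values, where the wild-type libraries had 3.938 to 23.48 FPKM and 279.4 to 635.2 FPKM. Chance marks about 1 in 20 groups by this criterion, and the 2 genes share exons and reads.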

How the results depend on the processing

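The number of members called moved by over 1.5 times in these cases. With column totals in place of TMM it was 15 in fl/fl UUO against sham (25 with TMM), 7 between genotypes in sham (13), 7 in UUO (11), 0 with LY2109761 (2), 0 for LY2109761 in fl/fl (3) and 2 for the genotype by LY2109761 interaction (6). Of 19256 genes, column totals called 11 higher and 12 lower between genotypes with LY2109761. They called 11 and 14 for LY2109761 in fl/fl, and 164 and 125 for that interaction. Without a filter on low counts the number of members was 0 between genotypes with LY2109761 and 0 for LY2109761 in fl/fl, and fitted on only the groups compared 0 between genotypes in sham, 0 with LY2109761 and 1 for LY2109761 in fl/fl, a lower call that was 0 of the 3 called with all groups. Of 33994 genes, no filter gave 54 higher and 168 lower between genotypes with LY2109761, and 153 and 207 for LY2109761 in fl/fl. The fits on only the groups compared gave 49 and 188 of 18011 genes, and 20 and 34 of 17850. DESeq2 called 3 members for LY2109761 in tKO (edgeR 0) and 12 for the genotype by LY2109761 interaction, 8 higher and 4 lower (edgeR 5 and 1). Of 19256 genes, it called 427 higher and 477 lower for LY2109761 in tKO (edgeR 16 and 17). In the interaction it called 1792 and 1764 (edgeR 1357 and 1309). With the replicate block the genotype comparison with LY2109761 called 0 members, where 68 of 19256 genes were called higher and 153 lower. No other count of members moved by over 1.5 times with this pairing. Removing mitochondrially encoded genes moved no count by that much. The calls over all genes moved too. On only the sham groups they were 3 higher and 3 lower, against 1109 and 1266 in the fit on all groups.

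Leaving out 1 library at a time gave 20 to 21 calls in fl/fl UUO against sham, 21 to 25 in tKO, 5 to 14 between genotypes in sham, 6 to 10 in UUO, 0 to 2 with LY2109761, 0 to 2 for LY2109761 in fl/fl, 0 to 1 for it in tKO, 0 for the genotype by obstruction interaction and 1 to 8 for the genotype by LY2109761 interaction. Over all genes the same fits called 3352 to 3835 higher and 2889 to 3445 lower in fl/fl UUO against sham. In tKO they called 3524 to 4177 higher and 3010 to 3561 lower. Between genotypes it was 275 to 1877 and 210 to 2358 in sham, and 488 to 1265 and 872 to 1618 in UUO. With LY2109761 it was 7 to 239 and 7 to 461. For LY2109761 in fl/fl it was 0 to 580 and 2 to 689. The count of members between genotypes in sham was 6 without any 1 fl/fl sham library and 5 without tKO sham replicate 2, and in UUO it was 6 without fl/fl replicate 1 or 3 or tKO replicate 2 or 3. In the genotype by LY2109761 interaction 1 member was called without fl/fl UUO replicate 1, fl/fl replicate 3 or tKO replicate 3 with LY2109761. There 714 to 756 genes were called higher and 626 to 652 lower. Over all left-out libraries that interaction called 714 to 1514 genes higher and 626 to 1400 lower. The genotype by obstruction interaction called 2 to 216 and 2 to 77, and LY2109761 in tKO 1 to 142 and 1 to 140.

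Directions that turned were those of Gstp1 (0.11), Sult1a1 (0.20) and Gsta5 (0.41) in fl/fl UUO and Sult1d1 (0.04), Mgst3 (0.33) and Gstt1 (0.14) in tKO UUO with column totals, and Ugt1a2 in tKO UUO (3.75 without tKO sham replicate 2, range -7.65 to 3.75 over left-out libraries). Between genotypes with LY2109761, Gsta3 turned to 0.23 and Ugt3a2 to -0.05 with the replicate block. There Gsta3 was 0.03 and Ugt3a2 -0.07 without fl/fl replicate 4, and Ugt3a2 was -0.21 without tKO replicate 2 (over left-out libraries, -0.46 to 0.03 for Gsta3 and -0.21 to 0.26 for Ugt3a2). Column totals shift the median of all genes; the other causes were not tested. Depth limits Mgst2, Gstp3, Sult4a1, Sult1b1 and Gsto2, which rest on few reads.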
